A study of Mus musculus with 6 samples.

Results

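The STAT family and the LIF receptor axis were followed in mouse embryonic stem (ES) cells with and without the repressor REST. The members were 6 STAT genes (Stat2, Stat3, Stat4, Stat5a, Stat5b and Stat6), the receptor subunits Lifr and Il6st, and the feedback inhibitor Socs3. They were found by gene symbol among the 25697 probes of the array, or by the array's own target name where the deposited comparison gave no symbol. This gave 17 probes for the 9 genes, of 17752 gene names in all, with 12 probes for STAT genes and 5 for the receptor subunits and Socs3. Total RNA was hybridised from 3 REST KO samples (source name FloResCre) and 3 control samples (source name FloRes), all of the ES cell line E14Tg2a, with 1 Illumina MouseRef-8 v2 array per sample. The authors' deposited comparison names its groups RestKO and Restflox, and its header calls the REST KO cells Rest-null. The sample labels give no allele or clone number. They do not say that samples of a genotype were grown separately, so every p-value refers to the variation among these 6 samples, part or all of which may be technical. The shared growth protocol also covers neural differentiation, but the design text describes the arrays as a comparison of ES cells.

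LIF is a cytokine that keeps mouse ES cells undifferentiated. It binds LIFR, which pairs with gp130 (the product of Il6st), and the Janus kinases bound to the pair phosphorylate STAT3, which enters the nucleus and switches on target genes. Socs3 is itself one of these targets, and its product shuts the receptor down again. Other STAT proteins serve other receptors: STAT2 acts below type I interferon, STAT4 below interleukin-12, STAT5A and STAT5B below prolactin, growth hormone and related cytokines, and STAT6 below interleukin-4 and interleukin-13. REST binds a DNA element called RE1 and represses neuronal genes outside the nervous system.

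Levels are normalized log2 intensities after background correction, and a difference is always REST KO minus control on that scale. A probe was tested where 3 or more of the 6 arrays detected it (detection p under 0.05), and called where limma's p, adjusted over all 11388 tested probes, was under 0.05. Of the 17 probes, 8 were tested, for 6 of the 9 genes: all 3 probes of Stat3, 1 each of Stat4, Stat6 and Lifr, and the single probes of Il6st and Socs3. Probes of a gene are numbered from the brightest. Levels of different probes are not on a common scale, so only the same probe is compared between arrays.

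The arrays summed to 16036012 to 17761820 units of raw intensity, and 42.5% to 44.9% of probes were detected on each. The probe for Rest itself was not detected on any array, with a level of 4.96 ± 0.11 in REST KO and 5.01 ± 0.09 in control (SD, n = 3 each), so it cannot check the labels. One control array stood apart. On control 2, 57.6% of tested probes lay nearer the mean of the 3 REST KO arrays than the mean of the other controls, and on REST KO 3, 45.7% lay nearer the controls. The same share was 32.1% on REST KO 1, 33.4% on REST KO 2, 31.4% on control 1 and 39.7% on control 3. All arrays shared 1 chip, with the controls on its first 3 positions and REST KO on the last 3, so chip position and genotype cannot be told apart.

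All 10 ES cell markers were detected on every array. Their mean level was 10.80, 10.81 and 11.22 on REST KO 1, 2 and 3, and 11.69, 11.11 and 11.66 on control 1, 2 and 3. All 10 had a difference below 0, as did 52.7% of all tested probes, with a median of -0.64. None was called, where 1.27% of all tested probes were. The differences spanned -1.01 (Esrrb) to -0.01 (Dppa5a), with Utf1 at -0.07 and Pou5f1 at -0.08, so the list did not fall evenly. The primed epiblast markers, genes of a more advanced pluripotent state, ran the other way, at 9.12, 9.21 and 8.81 in REST KO and 7.20, 8.69 and 7.56 in control. Of their 8 tested genes, Wnt8a and Krt18 were called higher in REST KO, where 1.05% of all tested probes were. Many markers of other cells were below detection: 9 of 10 fibroblast feeder genes, 5 of 8 neural genes, 4 of 7 primitive endoderm genes and 6 of 10 blood and immune genes, the leukocyte gene Ptprc among them, were detected on no array. Others were detected. Dab2 of the endoderm list averaged 9.11 in REST KO and 8.40 in control, Map2 of the neural list 8.07 in REST KO and 7.56 in control, and Gata1 of the blood list 7.52 in REST KO and 7.55 in control, on all 6 arrays and with no call. Nes, which encodes the neural progenitor filament nestin, was detected on 3 of 3 REST KO and 0 of 3 control arrays. Its measured means were 6.36 in REST KO and 5.35 in control, at least 1.49-fold higher in REST KO (adjusted p = 0.0504, no call). The mean level of the blood and immune list was 5.57 to 5.60 in REST KO and 5.61 to 5.72 in control, and of its 3 tested genes (Cd3e, Cd68 and Gata1) none was called. The mean level of the fibroblast list was 5.32 to 5.35 in REST KO and 5.24 to 5.27 in control, and of the neural list 5.68 to 5.77 in REST KO and 5.43 to 5.64 in control. The primitive endoderm list averaged 5.93 to 6.06 in REST KO and 5.98 to 6.34 in control. Sox7 in it was called lower, where 0.22% of all tested probes were. It was detected on 0 of 3 REST KO and 3 of 3 control arrays, so it reached the filter through the controls alone. Its measured means were 5.48 in REST KO, all background, and 6.33 in control, at least 1.43-fold higher in control. The part of these other cell states in the STAT and LIF values was not tested.

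Stat4 and Stat6 were the members whose level fell in REST KO. Stat4 probe 1 dropped to 55.6% of the control level and Stat6 probe 1 to 53.6%, and for both probes every REST KO array lay below every control array. The same held for 13% of all tested probes, and 25.1% had no overlap in either direction. Stat3 and Socs3 had lower means of a similar size, at 45.1% and 51.4% of control for the 2 Stat3 probes detected on all arrays and 46.1% for Socs3. Their arrays disagreed within both genotypes, and no call was made. Il6st was at 105% of the control level, with no call. Stat3 probe 3 and Lifr probe 1 were detected on 1 REST KO array each, and Stat6 probe 1 on 2, so their REST KO means include background values. These 3 probes reached the filter with all 3 controls. Thus 2 of the 8 tested probes were called, both lower, where 1.27% of all tested probes were called (145 of 11388), 0.22% lower and 1.05% higher. In bulk RNA, fewer cells expressing a gene and less RNA per cell cannot be told apart.

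Promoter sequences from RefSeq (build GRCm38.p6) are shown for the called genes Stat4 and Stat6 and for Stat3 and Socs3, whose levels moved together across the arrays. Each is a window of 300 bases on the gene's own strand, written 5′ to 3′, and capitals mark a STAT element, TTCNNNGAA, the palindrome that STAT dimers bind.
Stat4 (first of its 2 windows, chr1:51986898-51987197, plus strand): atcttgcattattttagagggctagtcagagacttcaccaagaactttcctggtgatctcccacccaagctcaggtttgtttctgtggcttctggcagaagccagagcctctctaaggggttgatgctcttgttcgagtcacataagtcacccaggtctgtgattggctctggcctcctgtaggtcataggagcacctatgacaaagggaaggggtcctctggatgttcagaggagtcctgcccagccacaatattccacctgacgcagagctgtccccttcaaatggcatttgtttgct
Stat6 (chr10:127642736-127643035, plus strand): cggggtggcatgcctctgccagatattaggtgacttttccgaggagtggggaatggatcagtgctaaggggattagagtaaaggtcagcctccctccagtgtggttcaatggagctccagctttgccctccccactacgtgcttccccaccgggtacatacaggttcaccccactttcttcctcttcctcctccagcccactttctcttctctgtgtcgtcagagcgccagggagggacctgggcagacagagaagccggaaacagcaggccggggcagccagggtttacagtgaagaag
Stat3 (chr11:100939491-100939790, minus strand): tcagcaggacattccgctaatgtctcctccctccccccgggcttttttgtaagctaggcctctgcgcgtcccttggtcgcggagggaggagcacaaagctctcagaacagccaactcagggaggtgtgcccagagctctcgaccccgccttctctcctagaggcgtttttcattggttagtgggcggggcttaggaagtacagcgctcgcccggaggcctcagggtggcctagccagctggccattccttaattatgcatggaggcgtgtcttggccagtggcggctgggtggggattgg
Socs3 (chr11:117969317-117969616, minus strand): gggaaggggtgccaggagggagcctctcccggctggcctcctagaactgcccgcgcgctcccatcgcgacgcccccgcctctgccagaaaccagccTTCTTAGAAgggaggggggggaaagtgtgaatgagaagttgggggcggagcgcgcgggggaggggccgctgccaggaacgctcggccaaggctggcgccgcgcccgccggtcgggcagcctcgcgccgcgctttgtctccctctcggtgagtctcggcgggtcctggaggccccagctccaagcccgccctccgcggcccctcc
The table held 13 windows for the 9 genes, each placed around an annotated start. The Stat6 window does not line up with the start of the gene in the RefSeq gene table, so a site is placed by its base in the window alone. A search of both strands found TTCNNNGAA in 1 of the 13, that of Socs3, as TTCTTAGAA from base 97 of the window. Of all 32851 windows of the same length in the table, 8.3% hold this string. Parts of the RE1 element bound by REST were searched on both strands in the same way. Its left part, TTCAGCACC, was in none of the 13 and in 0.371% of all windows, and its right part, GGACAGCGC, which does not overlap the left, was in none of the 13 and in 0.405% of all. A match is a description of the letters and not evidence of binding, and no match says only that these letters are not in this window.

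Stat4 is best known in T cells and natural killer cells, where it carries the interleukin-12 signal. Its probe 1 (chromosome 1) had levels of 7.31, 7.30 and 7.64 in REST KO, against 8.44, 8.06 and 8.30 in control. The highest REST KO array, REST KO 3, was below the lowest control array, control 2. The difference was -0.85 ± 0.15 (SE, 95% interval -1.19 to -0.51, adjusted p = 0.0470). Raw intensities before any correction were 243, 247 and 298 in REST KO and 466, 327 and 413 in control. Of the other probes, Stat4 probe 2 was detected on 0 of 3 REST KO and 2 of 3 control arrays and was not tested. Its levels were 5.30, 5.24 and 5.56 in REST KO and 6.03, 5.58 and 5.91 in control. The genotypes did not overlap, but its closest arrays, REST KO 3 and control 2, both failed detection. Against the lowest level detected on the REST KO arrays, its control mean of 5.84 is at least 1.02-fold higher than REST KO, whose measured mean was 5.37. Stat4 probe 3 was not detected on any array (5.12 ± 0.10 in REST KO and 5.06 ± 0.12 in control, SD, n = 3 each).

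Stat6, the transducer of interleukin-4, was near background in REST KO. Probe 1 (chromosome 10) had levels of 5.98, 5.79 and 6.13 in REST KO, against 6.83, 6.83 and 6.94 in control. It was detected on 2 of 3 REST KO arrays (not on REST KO 2) and on all 3 controls, so its fold change averages in a background value. The controls had an SD of 0.06, and control 2 was level with control 1. The difference was -0.90 ± 0.12 (SE, 95% interval -1.18 to -0.62, adjusted p = 0.0274). Stat6 probe 2 was not detected on any array, at 5.04 ± 0.04 in REST KO and 4.95 ± 0.03 in control (SD, n = 3 each). Its genotypes did not overlap either, with REST KO higher. The authors' deposited table, which tested all but 2 of the array's probes and called 1.74% of them, gives Stat4 probe 1 a log2 fold change of -0.61 (adjusted p = 0.0174) and Stat6 probe 1 one of -0.46 (adjusted p = 0.0181). In the authors' deposited table no other member probe had an adjusted p under 0.05.

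**Figure D1:**
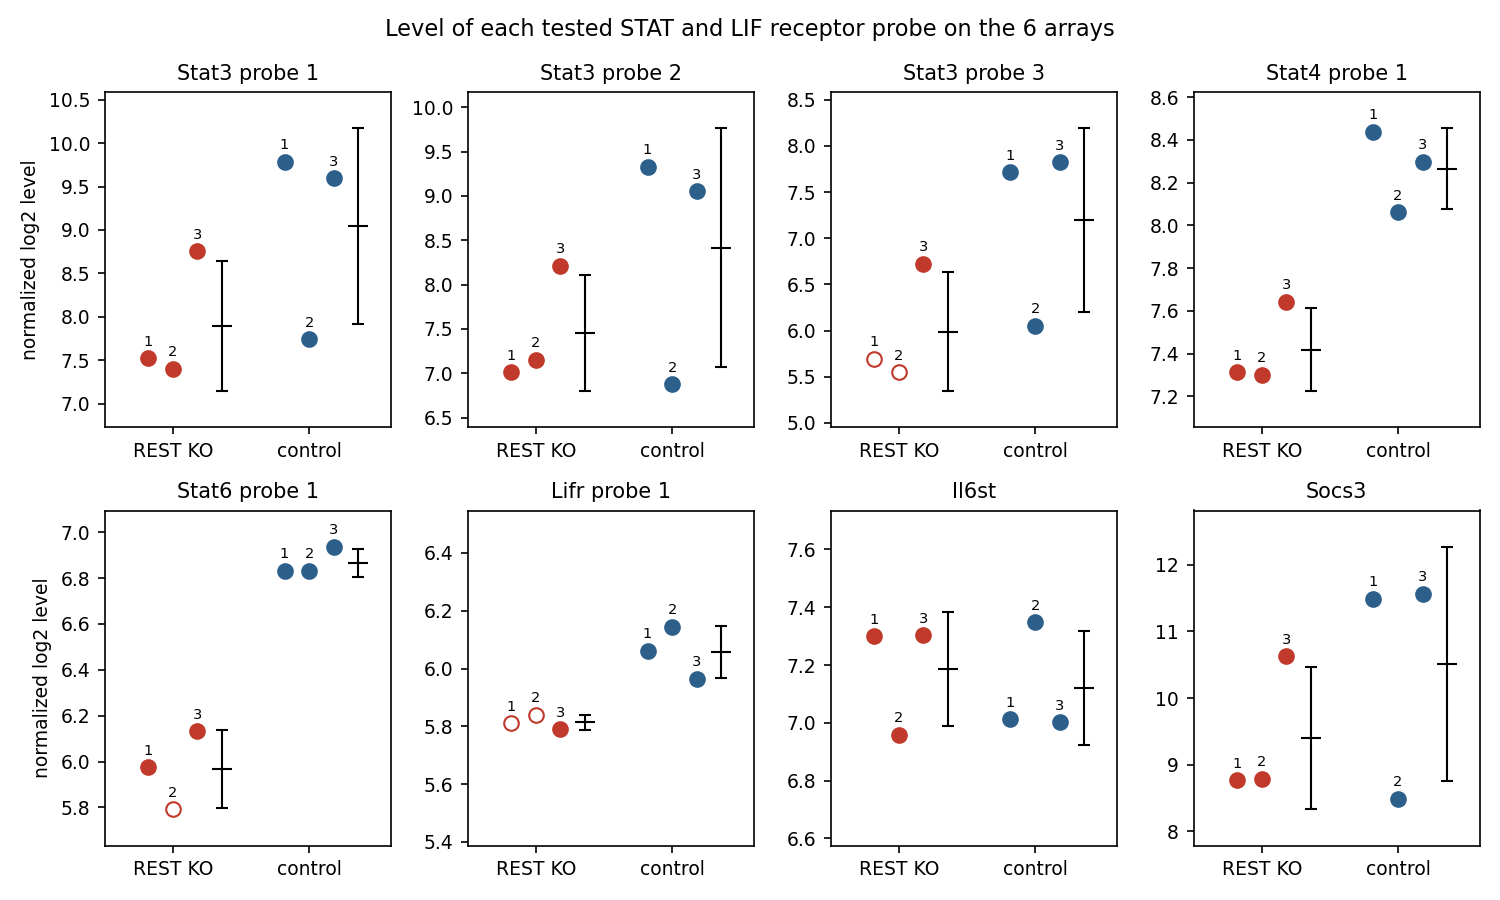
Normalized log2 level (vertical axis, scaled per probe) of the 8 tested probes on the 3 REST KO arrays (red, left) and the 3 control arrays (blue, right). Numbers are replicates, open circles are arrays on which the probe was not detected, and bars are the mean ± SD. The genotypes do not overlap for Stat4, Stat6 and Lifr, while for Stat3 and Socs3 control 2 sits with REST KO 1 and REST KO 2.

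Both calls were sensitive to which arrays were included. Leaving out REST KO 1, REST KO 2, REST KO 3 or control 1 ended both, with adjusted p of 0.0680 to 0.212 for Stat4 and 0.0619 to 0.163 for Stat6, and these fits called 0 of the 11388 probes (1445 to 2085 at an unadjusted p under 0.05). Leaving out control 3 ended the call for Stat4 (0.0821) but not for Stat6 (0.0366). Without control 2 both were called, at 0.0138 for Stat4 and 0.0127 for Stat6. With all 6 arrays, the call for Stat4 ended with cyclic loess (0.0564), with no filter (0.0628) and with detection on every array (0.0533), and the replicate number as a block ended both. Leaving out 1 array gave differences of -0.96 to -0.76 for Stat4 and -0.98 to -0.81 for Stat6. The background step moved the sizes further: without background correction they were -0.61 for Stat4 and -0.46 for Stat6, and with an offset of 50 they were -0.74 and -0.64, with both called each time.

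Stat3, the transducer of LIF itself, was read by 3 probes (chromosome 11 for probes 1 and 3, no position given for probe 2). Stat3 probe 1 had levels of 7.52, 7.40 and 8.75 in REST KO, against 9.79, 7.74 and 9.60 in control. Probe 2 had 7.01, 7.15 and 8.21 in REST KO, against 9.33, 6.87 and 9.05 in control. Probe 3 had 5.69, 5.55 and 6.73 in REST KO, against 7.72, 6.05 and 7.82 in control. The probes repeated 1 order of the arrays. Controls 1 and 3 were highest, REST KO 3 lay between, and REST KO 1, REST KO 2 and control 2 were lowest. Probe 3 was detected on 1 of 3 REST KO arrays (REST KO 3) and on all controls.

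The differences were -1.15 ± 0.59 for Stat3 probe 1 (SE, 95% interval -2.52 to 0.22, adjusted p = 0.323), -0.96 ± 0.65 for probe 2 (adjusted p = 0.445) and -1.21 ± 0.51 for probe 3 (adjusted p = 0.250). They were larger than those of Stat4 and Stat6, but the arrays spread more within both genotypes. The SD of the controls was 1.13 for Stat3 probe 1, against 0.19 for Stat4 and 0.06 for Stat6. The SD of the REST KO arrays was 0.75 for Stat3 probe 1, against 0.19 for Stat4 and 0.17 for Stat6. In raw intensity, Stat3 probe 1 had 269, 258 and 536 in REST KO, and 1040, 280 and 881 in control. The standard error over the beads of a probe, which covers neither labelling nor culture, was 2.48% to 9.45% of its intensity on the tested member probes.

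Socs3 (chromosome 11) showed the same order of arrays with the widest range of the members. Its levels were 8.77, 8.79 and 10.63 in REST KO, against 11.49, 8.49 and 11.56 in control. Control 2 was the lowest of all 6 arrays, and REST KO 3 lay nearer controls 1 and 3 than REST KO 1 and REST KO 2. The difference was -1.12 ± 0.88 (SE, 95% interval -3.18 to 0.95, adjusted p = 0.523). Raw intensities were 512, 518 and 1687 in REST KO, and 3154, 416 and 3159 in control.

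Without control 2, all 3 Stat3 probes and Socs3 were called lower in REST KO. The differences became -1.80, -1.73 and -1.78 for Stat3 (adjusted p = 0.0281, 0.0245 and 0.0214), or 28.7% to 30.1% of control, and -2.13 ± 0.53 for Socs3 (adjusted p = 0.0421), or 22.9% of control. That fit called 6 of the 8 member probes where it called 14.6% of all tested probes (7.4% lower). Control 2 was left out after its place among the arrays was known, and the labels give no reason to drop it. Without REST KO 3 the differences were -1.58, -1.34 and -1.58 for Stat3 and -1.73 for Socs3, with no call (adjusted p = 0.239, 0.366, 0.208 and 0.366). Leaving out control 1 shrank the Stat3 probe 1 difference to -0.78 and Socs3 to -0.63, and leaving out control 3 to -0.87 and -0.59.

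**Figure D2:**
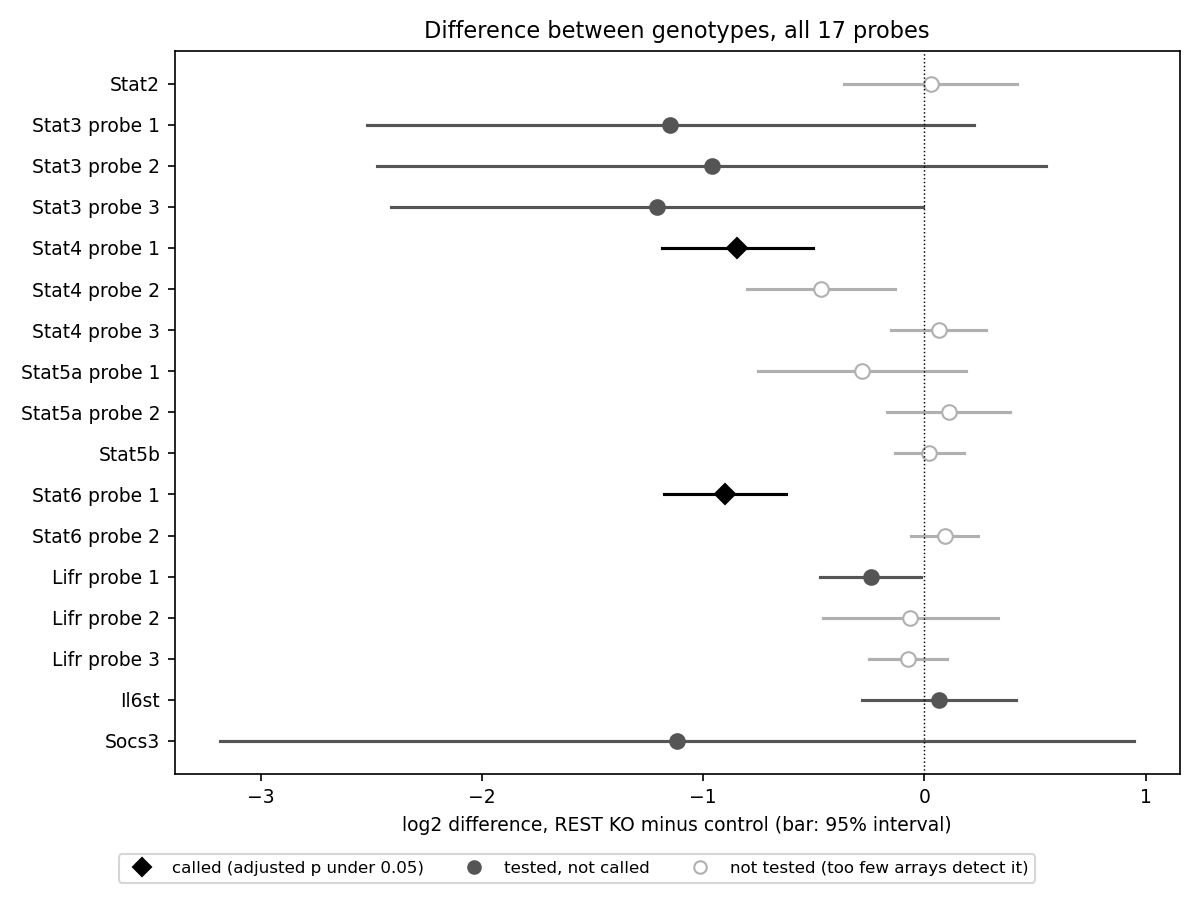
Log2 difference, REST KO minus control (horizontal axis), for all 17 probes, with 95% intervals as bars. Black diamonds mark the 2 called probes, grey discs the other 6 tested probes and open circles the 9 probes not tested. The intervals of Stat3 and Socs3 are several times wider than those of Stat4, Stat6, Lifr and Il6st.

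The receptor subunits had differences closer to 0 than Stat4 and Stat6, but of the 2 only Il6st was detected on all arrays. Lifr probe 1 lay near the lowest detected level, which was 5.73 to 5.84 on the controls. The size of its difference therefore cannot rank it against Stat4 and Stat6. Lifr, the LIF-binding subunit, had 3 probes (chromosome 15). Lifr probe 1 had levels of 5.81, 5.84 and 5.79 in REST KO, against 6.06, 6.14 and 5.96 in control, all close to background, and was detected on 1 of 3 REST KO and 3 of 3 control arrays. The genotypes did not overlap, with a difference of -0.24 ± 0.10 (SE, 95% interval -0.47 to -0.01, adjusted p = 0.227). Lack of overlap by itself was common: 25.1% of tested probes had it, 13% with REST KO lower. Lifr probe 2 was detected on REST KO 3 alone (5.41 ± 0.33 in REST KO and 5.47 ± 0.14 in control) and probe 3 on no array (5.16 ± 0.09 in REST KO and 5.23 ± 0.04 in control, SD, n = 3 each).

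Il6st, the shared signalling subunit gp130 (chromosome 13), had levels of 7.300, 6.958 and 7.303 in REST KO, against 7.013, 7.348 and 7.003 in control. The genotypes overlapped and control 2 was the highest of the controls, the reverse of Stat3 and Socs3. The difference was 0.07 ± 0.15 (SE, 95% interval -0.28 to 0.41, adjusted p = 0.847), so a change of the size seen for Stat4 or Stat6 lies outside its interval. Across the alternatives tried, the difference stayed below 0 for Stat3, Stat4, Stat6, Lifr and Socs3 and above 0 for Il6st wherever the probe was tested.

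Stat2, Stat5a and Stat5b had no tested probe. Stat2 (chromosome 10), which works with IRF9 in the interferon response, was detected on control 1 alone, at 5.70 ± 0.10 in REST KO and 5.67 ± 0.33 in control (SD, n = 3 each). Stat5a probe 1 was detected on controls 1 and 3 and on no REST KO array, with levels of 5.37, 5.34 and 5.46 in REST KO, against 5.87, 5.19 and 5.97 in control. Control 2 was again the lowest control, below the REST KO arrays. Stat5a probe 2 (chromosome 11) was at 5.26 ± 0.18 in REST KO and 5.15 ± 0.14 in control, and Stat5b (chromosome 11) at 5.01 ± 0.04 in REST KO and 4.99 ± 0.04 in control (SD, n = 3 each). Neither was detected on any array. At such signals only a bound can be set, and no change was detectable.

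Set against the mean of the 3 controls on each array, the 5 tested STAT probes averaged -1.25, -1.32 and -0.47 on REST KO 1, 2 and 3, and 0.46, -0.85 and 0.38 on control 1, 2 and 3. Every one of the 5 lay below the control mean on each REST KO array and on control 2. The Lifr, Il6st and Socs3 probes averaged -0.60, -0.70 and 0.01 on the REST KO arrays, and 0.29, -0.57 and 0.28 on the controls. The STAT average minus the other was -0.65, -0.62 and -0.47 in REST KO, and 0.17, -0.28 and 0.10 in control, so no REST KO array reached the lowest control. These averages have no test, since 3 of the 5 STAT probes read the same gene and Socs3 alone carried most of the second average. On control 2, Socs3 was at -2.02, while Lifr was at 0.09 and Il6st at 0.23.

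The order of the arrays differed between the members. Over the 6 arrays, Pearson's r was 0.98 between Stat3 probe 1 and Socs3 and 0.96 between Stat4 and Stat6. It was 0.82 between Stat3 probe 1 and Stat4 and 0.68 between Stat3 probe 1 and Stat6. Il6st ran against Stat3 probe 1 (r = -0.40). These are descriptions of 6 arrays that share the genotype difference and the placement of control 2. The full order seen for Stat3 (controls 1 and 3 above REST KO 3, itself above REST KO 1, REST KO 2 and control 2) was held by the 3 Stat3 probes and Socs3, and by none of Stat4, Stat6, Lifr and Il6st. This order was read off Stat3 first, and 8.47% of all tested probes held it and 8.32% its reverse.

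**Figure D3:**
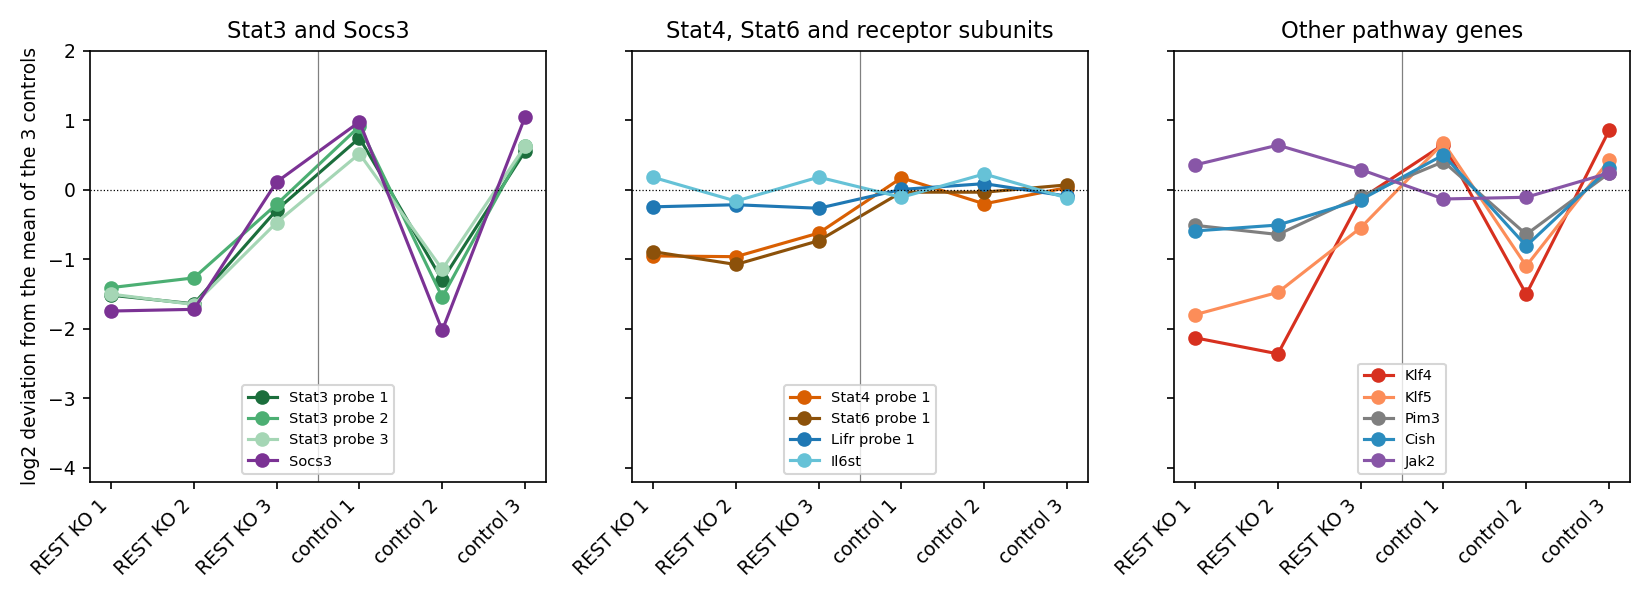
Log2 deviation from the mean of the 3 controls (vertical axis) on each array (horizontal axis, REST KO left of the grey line, control right of it), with lines joining the points of 1 probe only as a guide. Stat3 and Socs3 dip on REST KO 1, REST KO 2 and control 2 together; Stat4 and Stat6 are low on the 3 REST KO arrays alone; Klf4, Klf5, Pim3 and Cish have the order of arrays seen for Stat3, and Jak2 does not.

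The probes most like each member were taken by the highest Pearson's r over the 6 arrays among tested probes of other named genes. For Stat4 these were Ift88, a gene of ciliary transport, Accsl and Znrd1, with r of 0.996 to 0.998. Accsl was called lower as well (-0.81 ± 0.13, adjusted p = 0.0452), while Ift88 (-0.45, 0.0896) and Znrd1 (-0.46, 0.0854) were not. For Stat6 they were Txnip, which encodes the thioredoxin-interacting protein, Exog and the recombination gene Rad54l, with r of 0.995 to 0.998, differences of -0.54, -0.30 and -0.36, and no call. Stat3 probe 1 was closest to Mras, Sec14l1 and Pcolce, probe 2 to Klf2, Icam1 and Fndc10, and probe 3 to Oas2, Fabp3 and Zfp42. Mras, a small GTPase, had the widest range of these, at 6.18, 5.97 and 8.12 in REST KO, against 9.84, 6.55 and 9.64 in control. Klf2 and Zfp42 are ES cell genes, and Zfp42 was at 10.99, 10.98 and 11.93 in REST KO, against 12.73, 11.27 and 12.86 in control. Socs3 was closest to Syne4, Ly6g6e and Dnajc6, with r of 0.998 to 0.999. These were picked as the closest of 11388 probes over 6 arrays.

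Of 78 genes around the axis, in 7 lists from ligands to side branches, 76 had a probe and 45 were tested. None was called by limma, where 1.37% of all genes were called by their brightest probe, and 10 of the 45 had an unadjusted p under 0.05, as did 19.9% of all tested probes (10% lower). Without control 2 the same fit called 13 of the 45, of which 5 were higher and 8 lower, where it called 14.6% of all tested probes, 7.4% lower. Over the 45 genes, 22 differences were above 0 and 23 below, with a median of -0.02. Of all tested probes 52.7% were below 0, with the same median (-0.02).

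Among the ligands, Lif itself was not detected on any array, at 5.61 ± 0.05 in REST KO and 5.52 ± 0.13 in control (SD, n = 3 each). All 3 tested ligands had differences above 0 and none was called. Il11, another gp130 cytokine, had levels of 6.66, 6.38 and 6.32 in REST KO, against 5.75, 5.69 and 6.33 in control, and was detected on 1 control (0.53 ± 0.19, adjusted p = 0.188). Cntf differed by 0.16. Of the co-receptors that pair with gp130, Osmr was detected on 1 control array and Il6ra on none. Il11ra1 and Cntfr differed by -0.06 and 0.02.

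Of the Janus kinases, which phosphorylate the receptor and the STATs, Jak1 was not detected on any array and the other 3 were tested without a call. Jak2 had levels of 6.67, 6.96 and 6.61 in REST KO, against 6.18, 6.21 and 6.56 in control, without overlap (0.43 ± 0.15, adjusted p = 0.176). Tyk2 and Jak3 had the order of arrays seen for Stat3, with differences of -0.25 ± 0.12 (adjusted p = 0.309) and -0.36 ± 0.23 (adjusted p = 0.416).

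Of the 11 inhibitors of the pathway that were tested, 4 differences were above 0 and 7 below, and none was called. Cish, a STAT5-induced inhibitor, had the lowest, at -0.42 ± 0.33 (adjusted p = 0.527), with levels of 7.50, 7.59 and 7.95 in REST KO, against 8.60, 7.29 and 8.40 in control. It followed the order of Stat3, as did Socs2 (-0.31 ± 0.14, adjusted p = 0.276), Pias4 and Ptpn6, where 8.47% of all tested probes held it. For Pias4 the order turned on very small gaps, with REST KO 3 at 9.681 and controls 1, 2 and 3 at 9.688, 9.677 and 9.695. Control 2 thus lay with the other controls for Pias4, unlike for Stat3. Socs6 had the highest difference, with levels of 8.59, 8.51 and 8.41 in REST KO, against 8.11, 7.82 and 8.13 in control, without overlap (0.48 ± 0.12, adjusted p = 0.0962). Socs1 was not detected on any array.

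Of the STAT3 targets known from ES cells, 12 were tested, 4 with differences above 0 and 8 below (median -0.16), and none was called. Klf4, a pluripotency factor downstream of LIF, had levels of 7.71, 7.48 and 9.71 in REST KO, against 10.49, 8.33 and 10.69 in control (-1.54 ± 0.77, adjusted p = 0.313). Its relative Klf5 had 10.56, 10.88 and 11.81 in REST KO, against 13.03, 11.26 and 12.77 in control (-1.27 ± 0.50, adjusted p = 0.221). For both, control 2 lay below REST KO 3 and apart from the other controls, as for Stat3. The Stat3 order was held by 7 of the 12 (Klf4, Klf5, Pim3, Junb, Bcl3, Sall4 and Cebpb) and its reverse by Mcl1. For Sall4 the order turned on small gaps, with REST KO 2, REST KO 3 and control 1 at 12.28, 12.30 and 12.32. Its r with Stat3 probe 1 was 0.69, against 0.99 for Klf4 and 0.98 for Klf5. Of all tested probes 8.47% held this order and 8.32% its reverse. The order was read off Stat3 in these same data, so the count is a description and not a test. Without control 2, Klf4 (-2.29, adjusted p = 0.0496), Klf5 (-1.82, 0.0214), Pim3, Junb, Bcl3 and Cebpb were called lower and Mcl1 higher. Ccnd1, which encodes cyclin D1, had the highest difference, at 0.29 ± 0.11 (adjusted p = 0.211), and the ES cell factor Tfcp2l1 had no probe. Part of the ES cell marker list moved with these values: 4 of its 10 genes (Nanog, Zfp42, Esrrb and Tcl1) held the Stat3 order. The others did not, and r with Stat3 probe 1 over the list ran from -0.55 (Utf1) to 0.996 (Tcl1). Of 8 tested primed epiblast genes, 4 held the reverse order.

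Receptors that feed the other STATs were mostly below detection, with 11 of 16 detected on no array and 4 tested. The interleukin-4 receptor gene Il4ra, upstream of STAT6, and the interleukin-12 receptor genes Il12rb1 and Il12rb2, upstream of STAT4, were among those detected on no array. Il13ra1, an interleukin-13 receptor gene that also feeds STAT6, was detected on 3 of 3 REST KO and 2 of 3 control arrays, at 6.09, 6.22 and 5.81 in REST KO, against 5.97, 5.61 and 5.92 in control (0.21 ± 0.15, adjusted p = 0.487). Ghr, the growth hormone receptor, had levels of 7.95, 7.93 and 7.76 in REST KO, against 6.82, 6.41 and 7.28 in control, without overlap (1.04 ± 0.21, adjusted p = 0.0633). It missed the threshold here but passed it with all 6 arrays without background correction (0.67, adjusted p = 0.0357), with an offset of 50 (0.0407), with a trended, robust eBayes (0.0312) and with array weights (0.0251). It also passed without control 2 (0.83, adjusted p = 0.0227) and without control 3 (1.27, adjusted p = 0.0176), and the range over all alternatives was 0.0176 to 0.247. Csf2ra had the lowest difference, at -0.10.

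On the side branches of LIF signalling through RAS, MAP kinase and PI3 kinase, 10 of 14 genes were tested, 6 with differences above 0 and 4 below, and none was called. Spry4, an inhibitor of RAS signalling, had levels of 8.39, 8.60 and 8.54 in REST KO, against 8.96, 8.78 and 9.11 in control, without overlap (-0.44 ± 0.12, adjusted p = 0.117). None of the 10 held the order of arrays seen for Stat3 and 2 held its reverse, against 8.47% and 8.32% of all tested probes.

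**Figure D4:**
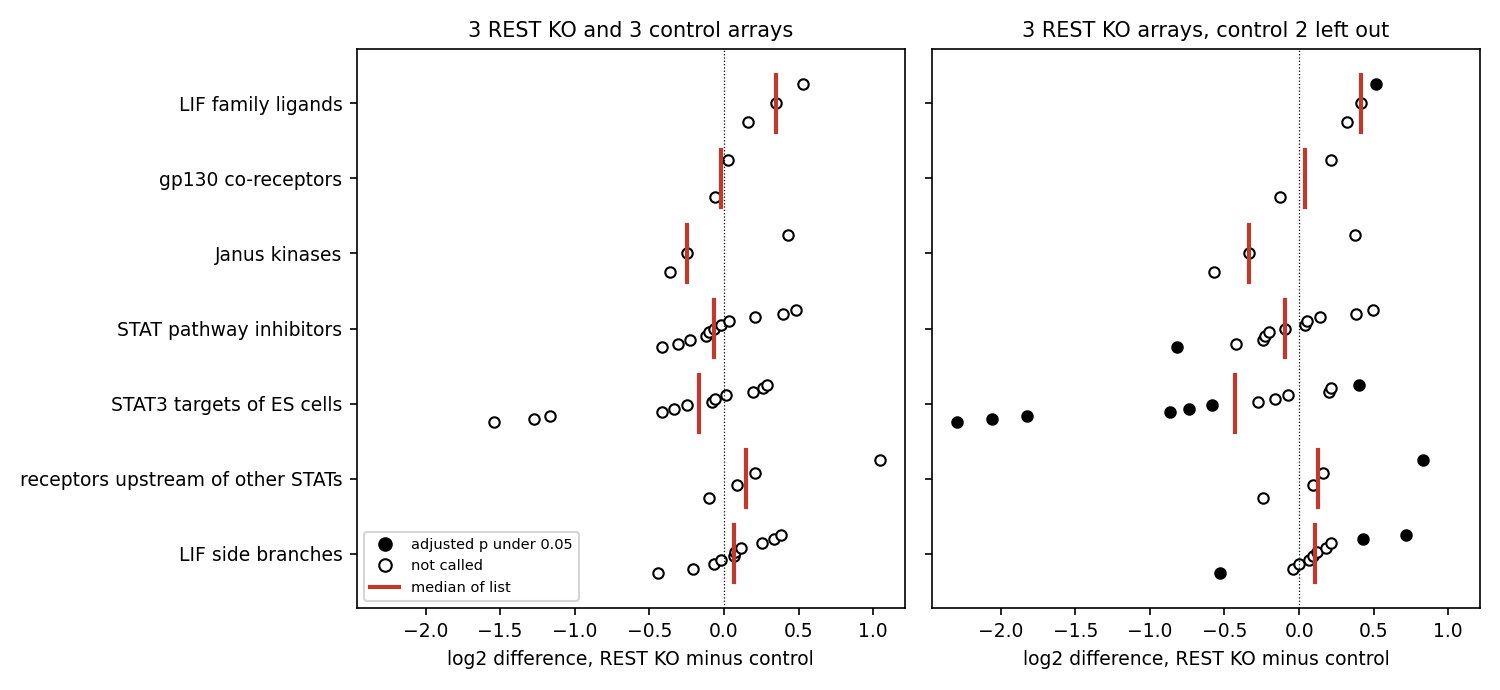
Log2 difference, REST KO minus control (horizontal axis), of each tested gene in the 7 pathway lists with all arrays (left) and without control 2 (right). Filled circles have an adjusted p under 0.05 and red bars are list medians. With all arrays 0 of 45 genes are filled; without control 2, 13 are, 6 of them STAT3 targets at the low end.

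**Figure D5:**
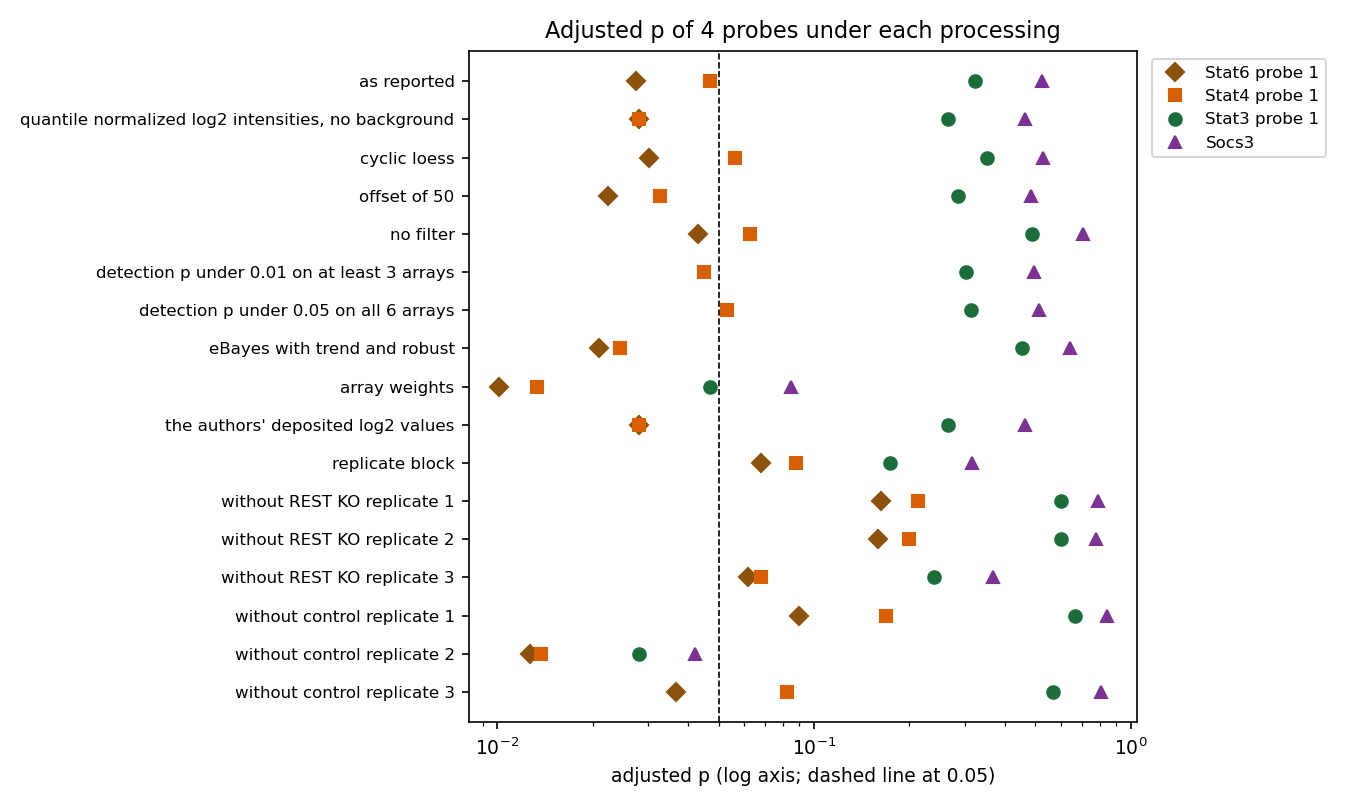
Adjusted p (log axis, dashed line at 0.05) of Stat6 probe 1, Stat4 probe 1, Stat3 probe 1 and Socs3 under the reported processing and each alternative; a missing Stat6 symbol means that the stricter filter dropped the probe. Stat6 and Stat4 lie between 0.0102 and 0.212 throughout, and Stat3 and Socs3 cross it together only without control 2.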

How the data were processed

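The deposited intensity of each probe is its mean over beads, made by the authors in BeadStudio 3.3.7 without normalization, per the file headers. The deposited detection score is headed as a p-value but grows with the signal, so 1 minus it served as detection p. The authors' deposited log2 values equal quantile normalized log2 intensities without background correction (largest difference 5e-09). The authors' own limma comparison, deposited with log2 fold changes and adjusted p-values, is quoted only where credited.

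Intensities were corrected and normalized with neqc (limma 3.58.1, R 4.3.3; detection p in place of negative controls, offset 16, which draws dim probes together). Probes with detection p under 0.05 on at least 3 of 6 arrays were tested two-sided with limma (lmFit, eBayes, genotype as the single term), and p was adjusted by Benjamini-Hochberg over all 11388. Each gene of a list is given by its brightest tested probe. Errors of differences are SE and errors of levels SD. The number of arrays limits the precision.

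Members and lists were chosen with earlier results of these data known. Named were all members, called list genes, each list's lowest and highest difference, 11 preset pathway genes, and 3 probes most like Stat3, Stat4, Stat6 and Socs3; other list genes were named after their values were seen, and some list genes are not reported here. Symbols were updated through RefSeq (GRCm38.p6). On simulated data for this comparison (11388 probes), 15.3%, 67.6% and 95% of probes changed by 0.5, 1 and 2 (log2) were recovered, with 6 false calls. The simulated noise was independent between probes, with no shift shared across an array as on control 2, so these rates need not hold for the real arrays. Alternatives changed the background correction, normalization, offset, filter, spread model, array weights, replicate block and each array in turn.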

Additional observations from a re-analysis of the deposited data

How the results depend on the processing

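With all 6 arrays, 145 probes, 2 member probes and 0 list genes were called. The counts in that order were 332, 2 and 1 with quantile normalized intensities without background correction and with the authors' deposited log2 values, 274, 2 and 1 with an offset of 50, and 364, 2 and 1 with a trended, robust eBayes, the 1 gene being Ghr each time. They were 138, 1 and 0 with cyclic loess, 50, 1 and 0 with no filter, 173, 1 and 0 with detection p under 0.01, and 69, 0 and 0 with detection on all 6 arrays. Stat6 was called with cyclic loess and with no filter, and Stat4 with detection p under 0.01, where Stat6 was not tested. Array weights gave 1386, 4 and 5, with Stat3 probes 1 and 3 added. Leaving out 1 array gave 0 to 1668 probes (called higher and lower 825 and 843 without control 2), 0 to 6 member probes and 0 to 13 list genes. Without control 3 the counts were 249, 1 and 1. The replicate block gave 0, 0 and 0 (2376 at an unadjusted p under 0.05; Stat4 adjusted p = 0.0880, Stat6 0.0681). Same-numbered samples deviated with r of -0.27, 0.34 and 0.36, and differently numbered ones with r of -0.55 to 0.45. So few arrays cannot show whether the numbers pair the samples. Small differences changed sign when 1 array was left out. The range was -0.0337 to 0.3215 for Cntf (lowest without control 3), -0.2403 to 0.0313 for Csf2ra (highest without control 3), -0.1529 to 0.0148 for Il11ra1 (highest without REST KO 3) and -0.1186 to 0.2111 for Cntfr (below 0 without REST KO 1, REST KO 2, control 1 or control 3). Over the alternatives that tested it, Stat4 was called in 7 of 16 (adjusted p = 0.0134 to 0.212) and Stat6 in 9 of 14 (0.0102 to 0.163). The cause of these shifts was not tested.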
